A study of Mus musculus with 6 samples.

Results

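Mitochondrial ribosomal protein genes were taken as the protein-coding rows of the count table whose name is Mrpl or Mrps followed by a number and at most 1 letter. This gave 76 genes among 20157 protein-coding rows, and 75 of them passed the filter on low counts. The tumors were grown from YUMM3.3, a BRAF-mutant mouse melanoma line injected under the skin of C57BL/6 mice of 8 to 10 weeks of age. The 3 vehicle tumors came from mice given water (0 mg/kg), and the 3 RGS tumors from mice given rigosertib at 300 mg/kg, both by oral gavage on 5 days a week, and all were collected after 17 days of treatment. Rigosertib (RGS) is a small molecule that the paper describes as a RAS mimetic, potentially blocking RAF and PI3K signaling. The paper also mentions other reported mechanisms and a dispute over microtubule effects of its preparations. The comparison asks which genes change in the tumor when mice receive it. All tumors derive from 1 cell line, and the sex of these mice is not given in the labels. Tumors are named here by the number in their sample label, vehicle 7 to 9 and RGS 10 to 12, and they were treated as separate animals, which the labels do not state.

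Mitochondrial ribosomes translate the few mRNAs that mitochondrial DNA encodes, all for subunits of the respiratory chain and ATP synthase. Each ribosomal subunit holds an RNA transcribed inside the organelle, mt-Rnr1 in the small and mt-Rnr2 in the large subunit. The proteins around these RNAs are encoded in the nucleus, made in the cytosol and imported. Many descend from bacterial ribosomal proteins, and the others have no bacterial counterpart and were added to the mitochondrial ribosome in evolution.

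Total counts were 22793087 to 32555494 in the vehicle tumors and 13837932 to 21617368 in the RGS tumors, so the vehicle libraries were all deeper than the RGS libraries, and depth and treatment cannot be told apart. The tested genes had 101 to 5570 counts in a tumor, with a median of 608.5. Of 10 leukocyte markers (such as Ptprc, the pan-leukocyte surface phosphatase CD45), 6 were at 0 in every tumor, Ptprc among them, and the list summed to 1 to 14 counts with vehicle and 1 to 4 with RGS. Of 7 melanocytic markers, Tyr, Dct and Mlana were at 0 in every tumor, and the list summed to 5.05 to 8.26 CPM (counts scaled to library size) in vehicle and 4.17 to 10.2 in RGS. Mitf, also on this list, was present in every tumor. After TMM scaling it stood at 7.45, 4.27 and 4.64 CPM in vehicle and 10.5, 7.30 and 4.53 in RGS, and it did not pass the threshold (log2 fold change 0.45). The pigment genes Tyr, Dct and Mlana and the leukocyte markers were thus absent or near 0 in samples labelled melanoma tumor, while Mitf was not. The 6 fibroblast markers summed to 412.1 to 646.6 CPM in vehicle and 281.8 to 294.4 in RGS, and the 5 endothelial markers to 0.965 to 1.29 and 3.11 to 10.3. Of the 6 fibroblast markers 4 fell, while Dcn rose by 3.24 on the log2 scale (adjusted p = 6.23e-05) and Col1a1 had 0.10 and did not pass. Of the 3 tested endothelial markers only Cdh5 rose past the threshold (log2 fold change 3.47), while Pecam1 (1.88) and Tek (-1.88) did not pass. The endothelial list rested on 22 to 42 counts with vehicle and 43 to 183 with RGS. The part of these shifts in the results below was not tested.

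Promoter windows from RefSeq (GRCm38.p6, 250 bases before to 50 after the start) matched 66 of the 75 tested genes. Below are the 120 bases before the first transcribed base for 4 genes, 5′ to 3′ on the gene's strand, chosen to show 3 genes that fell and 1 that rose. Capitals mark a match to the NRF1 core GCATGCGC or the ETS core CCGGAAG, the letters bound by nuclear respiratory factor 1 and by ETS factors such as GABP, both known regulators of nuclear genes for mitochondrial proteins. Mrpl24 and Mrps9 show no match in these bases, Mrpl9 ends in 2 overlapping NRF1 cores read on opposite strands, and Mrpl34 holds 1 ETS core. Mrpl9 had a log2 fold change of -0.53 (SE 0.18, adjusted p = 0.0315, edgeR's quasi-likelihood test). Its call held in only 10 of the 18 alternative fits described below. It was lost with offsets for GC content, length or both, and without vehicle 8, vehicle 9, RGS 10, RGS 11 or RGS 12.
Mrpl24, chr3:87919386-87919505, plus strand, lower with RGS: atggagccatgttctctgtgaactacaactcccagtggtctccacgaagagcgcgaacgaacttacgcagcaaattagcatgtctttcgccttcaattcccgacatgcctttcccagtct
Mrps9, chr1:42851113-42851232, plus strand, lower with RGS: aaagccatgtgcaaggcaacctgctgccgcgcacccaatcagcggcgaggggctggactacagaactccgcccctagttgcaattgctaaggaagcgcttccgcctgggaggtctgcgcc
Mrpl9, chr3:94443198-94443317, plus strand, lower with RGS: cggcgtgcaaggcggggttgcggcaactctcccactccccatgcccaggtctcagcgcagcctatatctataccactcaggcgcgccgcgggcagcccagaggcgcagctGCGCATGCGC
Mrpl34, chr8:71464806-71464925, plus strand, higher with RGS: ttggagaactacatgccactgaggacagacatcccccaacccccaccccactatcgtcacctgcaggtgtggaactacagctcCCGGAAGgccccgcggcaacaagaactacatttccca

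In the whole windows, on either strand, the ETS core was found in 22 of 66 genes (33.3%) against 18% of the 10038 windows of tested protein-coding genes. The YY1 core AAGATGGC was found in 12 of 66 (18.2%) against 4.69%, the NRF1 core in 8 of 66 (12.1%) against 5.39%, and the E-box CACGTG, which MYC binds, in 5 of 66 (7.58%) against 10.1%. The ETS core ends in the letters AAG with which the YY1 core begins, windows can hold several motifs, and 36 of 66 windows (54.5%) held at least 1 of the 4, against 32.9% of all windows. Among the 16 windows of genes that fell with RGS, 5 held any of them (3 with the NRF1 core, 3 with the ETS core, 1 with the YY1 core and none with the E-box). Both windows of the genes that rose held the ETS core. These matches describe letters in the reference and were not tested as binding sites.

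With RGS, 18 of the 75 genes fell (24.0%, against 16.5% of all 15355 tested genes) and 2 rose (2.67%, against 16.3%), by the quasi-likelihood test of edgeR at a Benjamini-Hochberg adjusted p under 0.05. Calls in either direction were made for 32.8% of all tested genes. The median log2 fold change was -0.16 over the 75 genes and -0.05 over all tested genes, and 51 of the 75 values were negative. The values lay between -1.31 and 0.85 with an SD of 0.49 over genes, while the SD over all tested genes was 1.74. All tested genes ran from -10.26 to 11.13 and include genes with a median count as low as 5. The 75 genes had at least 101 counts in every tumor, and the part of count level in their narrower spread was not tested. In a bulk sample, less RNA per cell and fewer cells of a type that carries it cannot be told apart. For 15 of the 75 genes the RGS tumors all lay below the vehicle tumors, a share under the 24.0% of all tested genes, and for 8 they all lay above, against 21.7%.

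The count of genes that fell depended on which tumors were compared. It was 30 without vehicle 7, against 16% of all genes tested in that fit. It was 10 (13.3%) without vehicle 9 and 8 (10.7%) without RGS 10, where 12.4% and 13.3% of all tested genes fell, so in these fits the share was near or below that of all genes. The count of genes that rose was 1 (1.33%) without vehicle 7, vehicle 8, RGS 11 or RGS 12. In these fits, in the same order, 16.9%, 11%, 12.4% and 12.1% of all tested genes rose. The median log2 fold change was -0.42 without vehicle 7 and -0.00044 with an offset for gene length, under which that of all tested genes was 0.06. All 18 genes were among the 30 called without vehicle 7. An offset for GC content left 13 lower genes (17.3%, against 12.7% of all tested genes), of which 11 were among the 18, and 2 higher genes that were not the same 2.

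**Figure D1:**
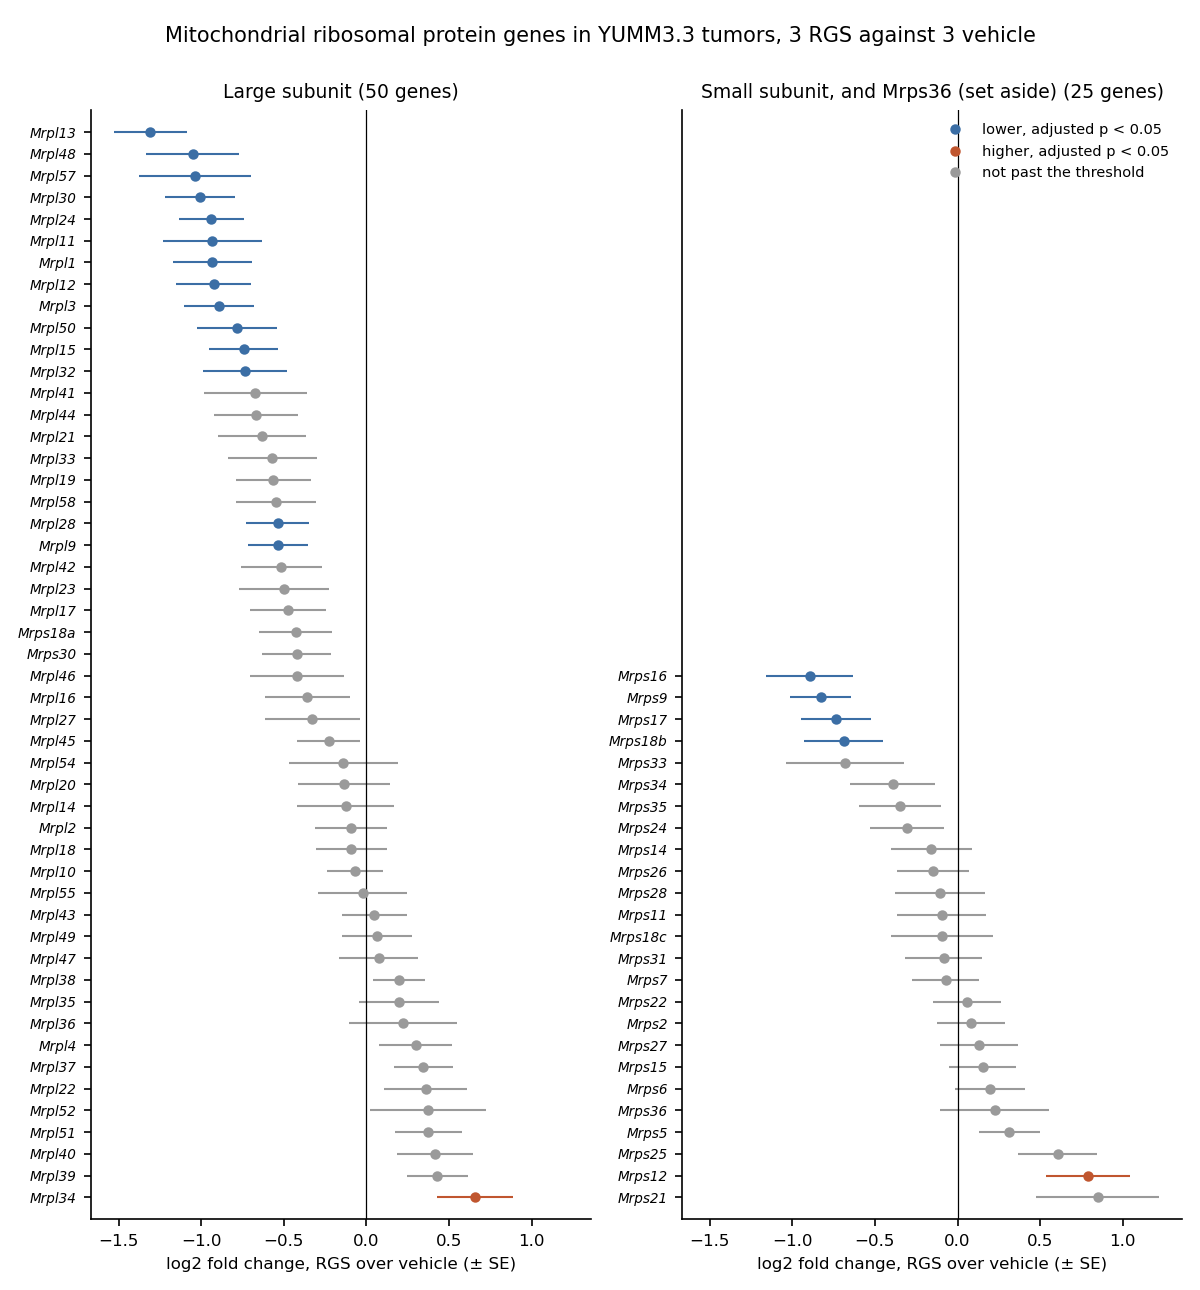
Log2 fold change of each tested gene, RGS over vehicle, with bars of ± 1 SE from edgeR, for the large subunit (left) and for the small subunit together with Mrps36 (right). Of the 50 large subunit genes 14 fell and 1 rose, of the 24 small subunit genes 4 fell and 1 rose, and Mrps36 was not past the threshold.

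By subunit, 14 of 50 large subunit genes fell and 1 rose, with a median log2 fold change of -0.42. Of 24 tested small subunit genes 4 fell (16.7%) and 1 rose (4.17%), with a median of -0.09. Of all tested genes 16.5% fell and 16.3% rose. Mrps18a and Mrps30, which carry small subunit names but sit in the large subunit of the assembled ribosome, were counted with the large subunit, and Mrps36, a component of the 2-oxoglutarate dehydrogenase complex, with neither. Of 44 genes with a bacterial counterpart 14 fell and 2 rose, and of 26 tested genes specific to mitochondria 3 fell and 0 rose by edgeR (5 and 2 at an unadjusted p under 0.05, 4 and 0 with DESeq2), a share of 11.5% lower. The differences between these classes were not tested. On the scale of counts per length (TPM over all genes), the sum over small subunit genes divided by the sum over large subunit genes was 0.346, 0.330 and 0.338 in the vehicle tumors and 0.409, 0.413 and 0.365 in the RGS tumors, so the groups did not overlap.

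The gene that fell the most was Mrpl13 (ENSMUSG00000022370.13, chr15:55534094-55557748, minus strand), the counterpart of a bacterial protein that binds the large rRNA early in assembly. Its level in CPM, here and below after TMM scaling, was 108.2, 191.0 and 239.4 in vehicle 7, 8 and 9, and 64.3, 70.3 and 83.0 in RGS 10, 11 and 12. The groups did not overlap, and the vehicle tumors spread far more than the RGS tumors. Its log2 fold change was -1.31 (SE 0.22, n = 3 tumors per group, adjusted p = 0.000174, edgeR's quasi-likelihood test). Mtbp, on the opposite strand, covers 4.16% of its exonic bases and fell by the same amount (log2 fold change -1.31). Whether counting used strand is not given, and the part of this overlap was not tested. Mrpl24 (ENSMUSG00000019710.13, chr3:87919506-87923672, plus strand) encodes a protein near the exit of the tunnel through which new chains leave the ribosome. It stood at 102.0, 141.2 and 182.7 CPM with vehicle and at 67.2, 70.6 and 84.5 CPM with RGS. Here too all RGS tumors lay below all vehicle tumors, with a log2 fold change of -0.94 (SE 0.19, adjusted p = 0.00105). Antisense to its exons runs Rrnad1, which covers 26.3% of its exonic bases and was not past the threshold (log2 fold change -0.05).

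Mrpl12 (ENSMUSG00000039640.7, chr11:120484613-120489065, plus strand) encodes the stalk protein that helps recruit translation factors and is also known to bind the mitochondrial RNA polymerase. It measured 43.99, 73.4 and 92.8 CPM with vehicle and 31.1, 38.2 and 41.5 CPM with RGS, a log2 fold change of -0.92 (SE 0.23, adjusted p = 0.00433). Vehicle 7 lay just above the highest RGS tumor. Mrpl10, its partner at the base of the stalk, stood at 55.3, 55.6 and 58.1 CPM with vehicle and 59.2, 51.4 and 50.3 CPM with RGS. The values overlapped, the log2 fold change was -0.07 (SE 0.17, adjusted p = 0.788), and vehicle 7 was not apart from the other vehicle tumors in this gene.

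Also in the large subunit, Mrpl30 (ENSMUSG00000026087.11, chr1:37890477-37898535, plus strand) was at 43.3, 64.5 and 75.4 CPM with vehicle and 30.9, 25.9 and 34.1 CPM with RGS. Its log2 fold change was -1.01 (SE 0.21, adjusted p = 0.00119), and no tumors overlapped. Mrpl3 (ENSMUSG00000032563.16, chr9:105053239-105079888, plus strand), whose bacterial counterpart reaches toward the peptidyl transferase centre, was at 44.7, 68.3 and 62.7 CPM with vehicle and at 30.8, 24.9 and 39.1 CPM with RGS, a log2 fold change of -0.89 (SE 0.21, adjusted p = 0.00328). Again the groups were apart. Mrpl1, the counterpart of the bacterial L1 stalk protein at the tRNA exit side, stood at 24.2, 42.2 and 45.9 CPM with vehicle and at 19.9, 20.2 and 18.7 CPM with RGS, with a log2 fold change of -0.93 (SE 0.24, adjusted p = 0.00534). Mrpl48 was at 19.7, 31.2 and 36.0 CPM with vehicle and 8.90, 15.9 and 17.2 CPM with RGS, with a log2 fold change of -1.05 (SE 0.28, adjusted p = 0.00766). For both, the lowest vehicle tumor was again vehicle 7, above all RGS tumors. The call for Mrpl1 was lost when GC content was offset (-0.39), and that for Mrpl48 without RGS 10 (-0.81, adjusted p = 0.0511). Rab6a, antisense to Mrpl48, covers 8.68% of its exonic bases at 2124 to 4549 counts and was not past the threshold (log2 fold change 0.38).

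In the small subunit, Mrps9 (ENSMUSG00000060679.14, chr1:42851233-42905683, plus strand), whose bacterial counterpart contacts the tRNA at the peptidyl site, stood at 72.8, 94.7 and 117.3 CPM with vehicle and at 53.2, 51.9 and 55.2 CPM with RGS. Its log2 fold change was -0.83 (SE 0.18, adjusted p = 0.00183), and the RGS tumors lay close together below all vehicle tumors. Mrps16 was at 19.2, 28.9 and 37.2 CPM with vehicle and at 17.8, 15.6 and 12.3 CPM with RGS, with a log2 fold change of -0.90 (SE 0.26, adjusted p = 0.0129). Vehicle 7 was close to RGS 10 in this gene. The call for Mrps16 was lost without vehicle 9 (-0.65) and without RGS 12 (-0.79). Mrps17 also fell (log2 fold change -0.73, adjusted p = 0.0119, called in 14 of 18 alternative fits), chosen here because it was the remaining small subunit gene below the threshold beside Mrps18b.

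Both genes that rose are short and have bacterial counterparts. Mrps12 (ENSMUSG00000045948.8, chr7:28739641-28741820, minus strand) encodes a protein of the decoding centre, whose bacterial counterpart is the classical site of streptomycin resistance. It was at 15.9, 16.7 and 15.0 CPM with vehicle and at 23.1, 38.6 and 20.8 CPM with RGS. Its log2 fold change was 0.79 (SE 0.25, adjusted p = 0.0217), and the RGS tumors spread more than the vehicle tumors, with RGS 11 the highest. Mrpl34 (ENSMUSG00000034880.7, chr8:71464959-71465747, plus strand), a small protein of the large subunit, was at 17.7, 19.0 and 25.1 CPM with vehicle and at 27.4, 28.8 and 41.5 CPM with RGS, a log2 fold change of 0.66 (SE 0.23, adjusted p = 0.0347). For both genes all RGS tumors were above all vehicle tumors, and both calls were lost with an offset for GC content and with library size as the only scaling. The call for Mrps12 was also lost without RGS 11 (log2 fold change 0.46, adjusted p = 0.192), and that for Mrpl34 without RGS 12 (0.42, adjusted p = 0.212), vehicle 7 (0.56) or vehicle 8 (0.62). The largest positive value belonged to Mrps21, picked out after its value was seen, which did not pass the threshold (log2 fold change 0.85, SE 0.37, adjusted p = 0.0884) and whose groups overlapped.

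**Figure D2:**
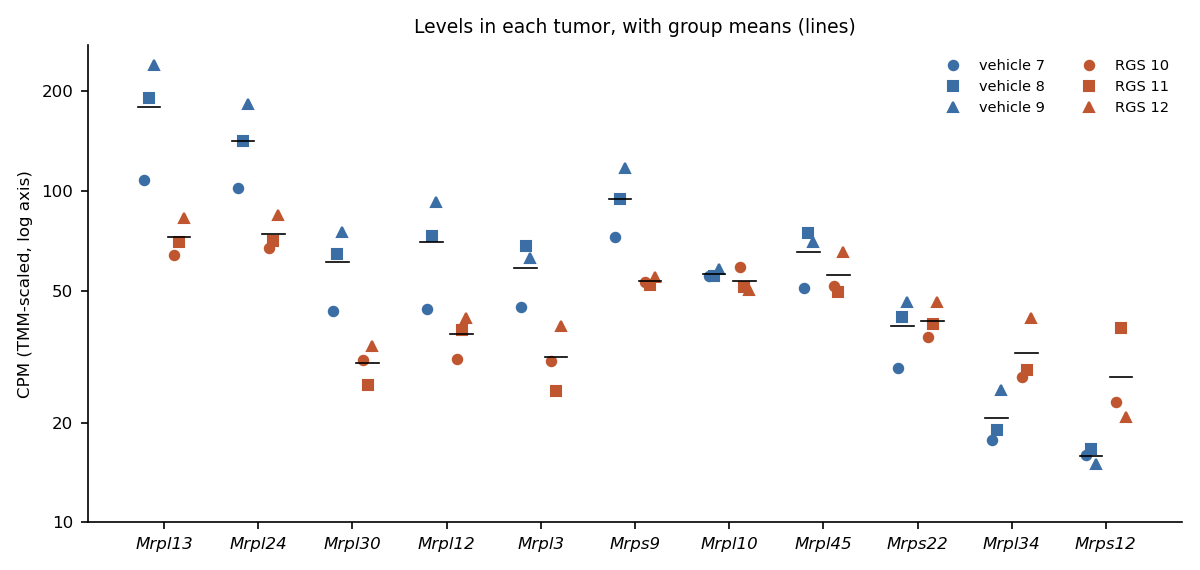
CPM in each tumor on a log axis for 6 genes that fell in every alternative fit (Mrpl13, Mrpl24, Mrpl30, Mrpl12, Mrpl3 and Mrps9), 3 genes past no threshold (Mrpl10, Mrpl45 and Mrps22) and the 2 that rose (Mrpl34 and Mrps12). Circles, squares and triangles are single tumors and lines are group means. Vehicle 7 is the lowest vehicle tumor for each of the 6 genes that fell and still above the RGS tumors.

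The Mrps18 family has 3 members that descend from 1 bacterial gene and occupy different places in the ribosome. Mrps18b, in the small subunit, was at 31.1, 35.6 and 30.2 CPM with vehicle and at 18.4, 14.4 and 27.2 CPM with RGS, and it fell (log2 fold change -0.69, SE 0.24, adjusted p = 0.0330). A low antisense transcript with 3 to 23 counts, Gm16279, covers 30.5% of its exonic bases. Mrps18a, in the large subunit, stood at 35.6, 50.2 and 55.9 CPM with vehicle and 29.4, 29.8 and 46.2 CPM with RGS (log2 fold change -0.43, SE 0.22, adjusted p = 0.149). Mrps18c was at 10.8, 12.6 and 23.5 CPM with vehicle and 11.2, 14.2 and 18.5 CPM with RGS (log2 fold change -0.09, SE 0.31, adjusted p = 0.846). Only for Mrps18b were the groups apart, and the differences between the 3 fold changes were not tested. Its call was lost with an offset for gene length (-0.56) and without vehicle 8, RGS 10 or RGS 11 (-0.63 to -0.51).

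Several genes with known roles were past no threshold. Mrpl44, whose product resembles ribonuclease III and whose mutation causes a cardiomyopathy in people, was at 17.7, 25.2 and 20.6 CPM with vehicle and 11.4, 12.3 and 16.3 CPM with RGS, and it narrowly missed the threshold although no tumors overlapped (log2 fold change -0.67, SE 0.25, adjusted p = 0.0506). Mrpl58, a peptidyl-tRNA hydrolase that rescues stalled ribosomes, had a log2 fold change of -0.55 (SE 0.24, adjusted p = 0.0913). Mrpl23, at the tunnel exit beside Mrpl24, had -0.50 (SE 0.27, adjusted p = 0.171), and Mrps30 had -0.42 (SE 0.21, adjusted p = 0.126). Mrpl45, which anchors the ribosome to the inner membrane, was at 50.9, 74.6 and 70.3 CPM with vehicle and 51.9, 49.7 and 65.5 CPM with RGS (log2 fold change -0.23, adjusted p = 0.382). In each of these genes except Mrpl44 the groups overlapped.

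Mrps6, a small subunit protein that shares 10.4% of its exonic bases with Slc5a3 on the same strand, was at 46.3, 64.4 and 87.4 CPM with vehicle and 68.7, 66.0 and 92.6 CPM with RGS (log2 fold change 0.20, adjusted p = 0.509). Mrps36 was at 8.99, 6.48 and 8.42 CPM with vehicle and 8.80, 8.28 and 10.8 CPM with RGS (log2 fold change 0.22, adjusted p = 0.643). The 3 values closest to 0 were those of Mrpl55 (-0.02, SE 0.27), Mrpl43 (0.05, SE 0.20) and Mrps22 (0.06, SE 0.20). For Mrps22, mutated in a human respiratory chain disease, the tumors ran from 29.2 to 46.4 CPM with vehicle and from 36.1 to 46.1 CPM with RGS. With SEs of 0.20 to 0.27 these genes could still have moved by amounts this number of tumors does not resolve. Mrps23 (ENSMUSG00000023723.17, chr11:88204388-88211507) was listed at 0 in all 6 tumors. Its neighbours Cuedc1 and Srsf1 were listed at 0 to 1 and 0 to 2 counts, and since Srsf1 encodes a splicing factor that all cells use, these zeros cannot be read as absence of expression.

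The vehicle tumors differed among themselves across this gene family. Vehicle 7 was the lowest vehicle tumor for 63 of 75 genes (84.0%), against 34.9% of all tested genes. As log2(CPM) minus the mean of the vehicle tumors, the median over the 75 genes was -0.37 in vehicle 7, 0.11 in vehicle 8 and 0.29 in vehicle 9, and -0.40, -0.22 and -0.06 in RGS 10, 11 and 12. Over all tested genes the same median was 0.02, 0.00 and -0.02 with vehicle and -0.05, -0.05 and -0.08 with RGS. The gap between vehicle 7 and vehicle 9 was thus wider than the gap between the group medians. The summed level of the 75 genes was 2205, 3004 and 3493 CPM with vehicle (mean 2901 ± 650.3, SD, n = 3) and 2085, 2286 and 2606 CPM with RGS (2326 ± 262.7), and the groups overlapped because vehicle 7 lay below RGS 11. Of the 18 genes that fell, vehicle 7 was the lowest vehicle tumor for 17, and for 5 it was not above every RGS tumor. Vehicle 7 is also the deepest library, and the part of depth in this was not tested.

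**Figure D3:**
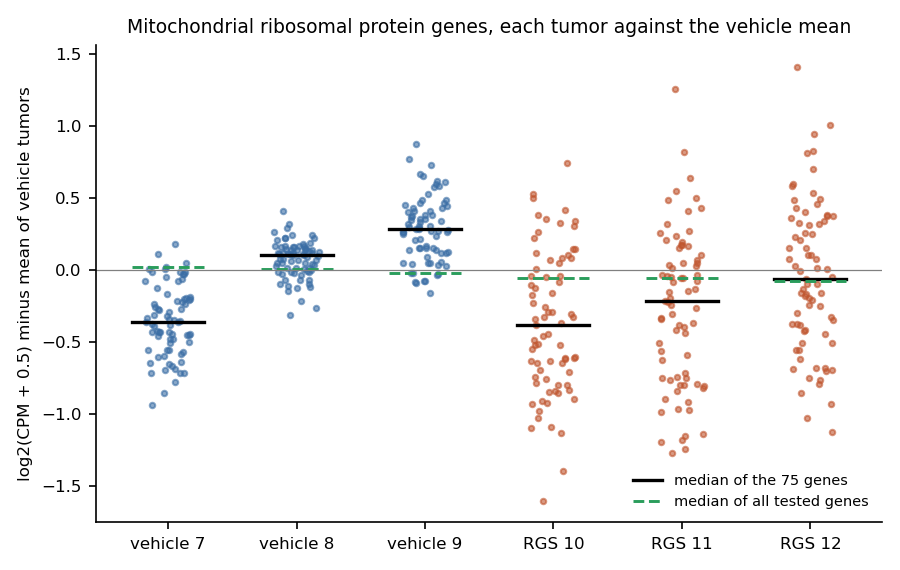
Each point is 1 of the 75 genes in 1 tumor, as log2(CPM + 0.5) minus the mean of the 3 vehicle tumors, with black lines at the median of these genes and dashed green lines at the median of all tested genes. Taken without the added 0.5, the medians of the 75 genes are -0.37, 0.11 and 0.29 in vehicle 7, 8 and 9 and -0.40, -0.22 and -0.06 in RGS 10, 11 and 12. The dashed lines stay within 0.08 of 0.

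Levels can be compared between genes only per length, given here as TPM. Averaged over the 6 tumors, the genes covered a 24.8-fold range, with a median of 39.4 TPM and quartiles at 21.02 and 56.5 TPM. The highest were Mrpl28 (202.8 TPM), Mrpl24 (148.6 TPM) and Mrpl2 (144.9 TPM), followed closely by Mrpl43 (144.1 TPM), but the order differed between the groups. Mrpl24 ranked 2 with vehicle (202.9 ± 36.4 TPM, SD, n = 3) and 7 with RGS (94.3 ± 4.89 TPM). Mrpl34 ranked 7 with vehicle (110.4 ± 10.2 TPM) and 2 with RGS (153.2 ± 25.2 TPM), beside Mrpl28 (154.1 ± 0.77 TPM). The lowest were Mrpl48 (8.17 TPM), Mrps25 (9.83 TPM) and Mrpl23 (11.6 TPM). Of the highest, Mrpl28 and Mrpl24 fell. Mrpl28 was at 70.9, 106.8 and 119.7 CPM with vehicle and 62.8, 68.0 and 74.0 CPM with RGS, a log2 fold change of -0.54 (SE 0.19, adjusted p = 0.0356) with vehicle 7 among the RGS tumors. Its call held in 12 of 18 alternative fits. It was lost with the length offset (-0.24, adjusted p = 0.218) and without vehicle 8, vehicle 9, RGS 10, RGS 11 or RGS 12 (-0.62 to -0.38). Mrpl2 was past no threshold (log2 fold change -0.09, SE 0.22, adjusted p = 0.783). Mrps25 was at 13.3, 20.6 and 17.1 CPM with vehicle and 21.5, 26.3 and 29.7 CPM with RGS (log2 fold change 0.61, adjusted p = 0.0595), but 69.8% of its exonic bases lie antisense to Nr2c2, whose log2 fold change was -1.10. The lengths used are those in the deposited table, and a gene whose tumors use shorter transcripts would be given too low a level per length.

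Fold change went with GC content and length among these genes. Across the 75 genes, Spearman's rho between log2 fold change and GC content was 0.36, against 0.22 over 15326 tested genes. With length it was -0.36, against 0.06 over all tested genes. These describe points that share the same 6 libraries. Of 38 genes with a GC content of at most 50.4%, 15 fell and 0 rose (17 and 2 at an unadjusted p under 0.05, 15 and 0 with DESeq2), and of the 37 above it 3 fell and 2 rose. Of 38 genes up to 2255 bases 5 fell and 2 rose, and of 37 longer genes 13 fell and 0 rose (16 and 2 at an unadjusted p under 0.05, 13 and 0 with DESeq2). Among all tested genes 496 of 3851 (12.9%) fell up to that length, close to the 13.2% of the short ribosomal genes, and 2037 of 11504 (17.7%) above it. Among all tested genes up to the same GC content 1778 of 8137 fell and 881 rose, and above it 748 of 7189 fell and 1619 rose. With the GC offset in the fit the 2 correlations were -0.11 and -0.11 among the 75 genes, and 13 genes fell and 2 rose. With the length offset instead, 15 fell and 7 rose, and the correlations were larger in size, 0.45 with GC content and -0.54 with length. The share that rose, 9.33%, was below the 20% of all tested genes in that fit. With both offsets in the fit, added after seeing the data, the correlation was 0.06 with GC content and -0.36 with length.

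**Figure D4:**
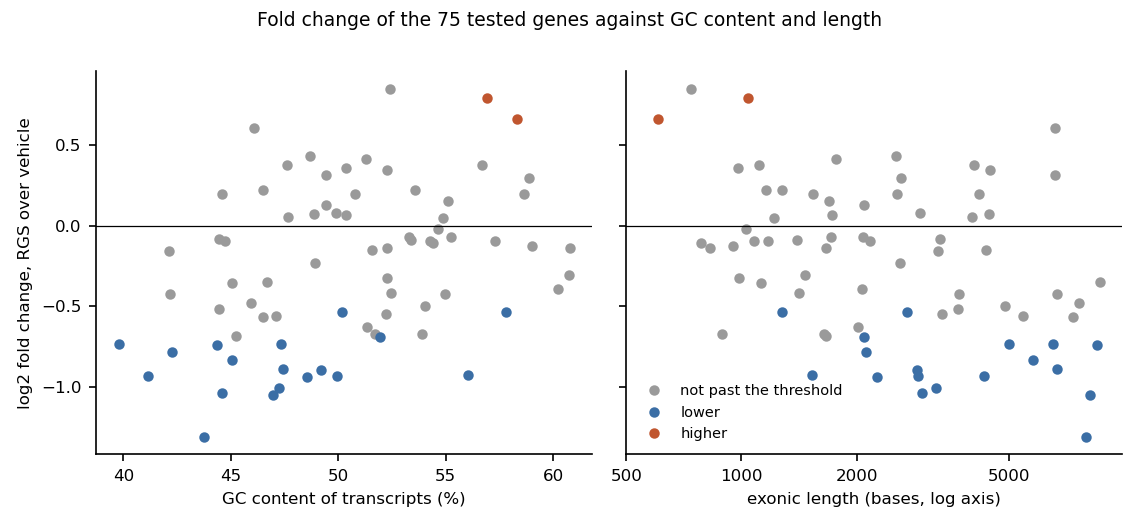
Log2 fold change of the 75 genes against GC content in percent (left) and exonic length in bases on a log axis (right). Blue points fell, orange points rose and grey points did not pass the threshold, and 15 of the 18 blue points lie at a GC content of at most 50.4%.

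The RNAs that these proteins assemble with rose with RGS, as did most of the mRNAs they translate. mt-Rnr2, the large subunit rRNA, was at 774.0, 912.9 and 1778 CPM with vehicle and at 3802, 5556 and 6593 CPM with RGS, a log2 fold change of 2.20 (SE 0.26, adjusted p = 3.16e-06). mt-Rnr1, of the small subunit, rose as well (log2 fold change 1.57, SE 0.24, adjusted p = 7.29e-05). No tumors overlapped for either gene. Of 12 tested mitochondrial mRNAs 11 rose and 0 fell by edgeR (91.7% higher, against 16.3% of all tested genes). The mRNAs that rose numbered 12 at an unadjusted p under 0.05 and 11 with DESeq2, and 0 fell in either. Among them mt-Cytb rose by 2.19 on the log2 scale (SE 0.19, adjusted p = 1.09e-07), mt-Nd2 by 2.19 (SE 0.20), mt-Nd1 by 2.01 (SE 0.20) and mt-Nd6 by 2.08 (SE 0.22). As a share of all counts, the mitochondrial mRNAs took 2.03%, 2.12% and 2.99% with vehicle and 5.18%, 6.66% and 7.54% with RGS, and the 75 nuclear genes 0.237%, 0.317% and 0.357% and 0.204%, 0.219% and 0.240%. With mitochondrial genes left out of the fit, 18 nuclear genes fell and 2 rose as before. Some mitochondrial mRNAs were listed at few counts in every tumor, such as mt-Co2 at 2.11 to 8.01 CPM, and how reads that fit several places were counted is not stated in the sources used here. How rRNA was handled in library preparation is not stated either, so the rRNA levels may not be those of the tumors.

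**Figure D5:**
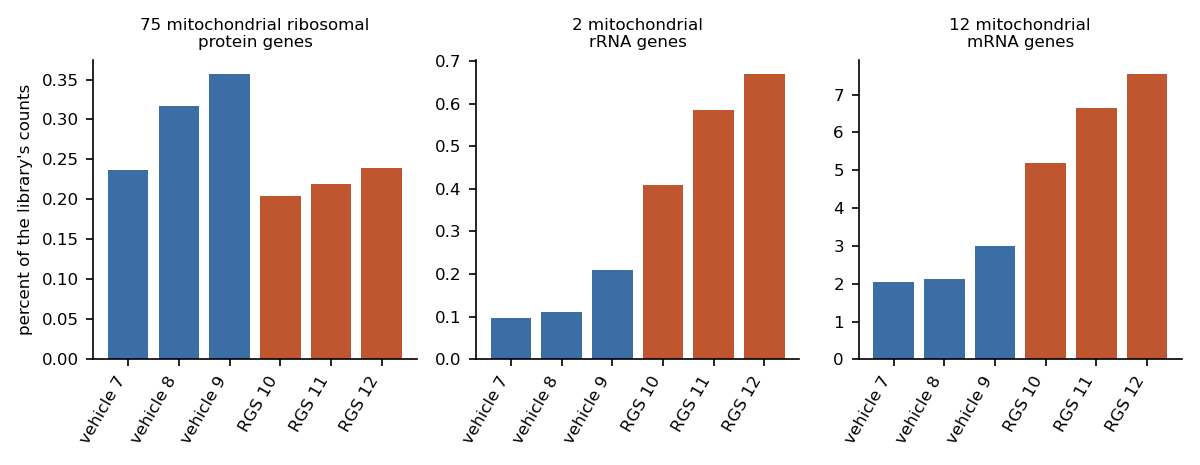
Percent of each library's counts taken by the 75 nuclear genes, the 2 mitochondrial rRNA genes and the 12 tested mitochondrial mRNA genes, 1 bar per tumor, each panel with its own axis from 0. The rRNA bars reach at most 0.209% in the vehicle tumors and at least 0.409% in the RGS tumors, while the bars of the nuclear genes overlap between groups.

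Other genes of the pathway were read from lists of their own. Beside the shares given for these lists, 16.5% of all tested genes fell and 16.3% rose. Of 5 mitochondrial ribosomal proteins with other names 1 fell, Chchd1 (log2 fold change -1.27, SE 0.32, adjusted p = 0.00512), while Dap3, Ptcd3, Aurkaip1 and Gadd45gip1 had values between -0.36 and -0.14 that did not pass. For Chchd1 the groups overlapped, since vehicle 7 lay below RGS 11. Of 26 tested assembly factors 9 fell (34.6%) and 0 rose, with a median of -0.37. The counts were the same at an unadjusted p under 0.05 and with DESeq2. Fastkd2, which binds the large subunit rRNA, fell by 1.34 on the log2 scale (SE 0.24, adjusted p = 0.000246), and the assembly GTPase Gtpbp10 fell by 1.94 (SE 0.35, adjusted p = 0.000306). Ngrn, also needed for that rRNA, fell by 1.15 (SE 0.22), and Mettl15, a methyltransferase of the small subunit rRNA, fell by 1.91 (SE 0.43). For these 4 genes no tumors overlapped.

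Of 14 translation factors 4 fell (28.6%) and 1 rose (7.14%). Guf1, a back-translocating GTPase, fell by 1.30 on the log2 scale (SE 0.26, adjusted p = 0.000715), the ribosome recycling factor Mrrf fell by 1.14 (SE 0.25), the initiation factor Mtif2 fell by 0.64 (SE 0.20) and the release factor Mtrf1 fell by 1.69 (SE 0.62, adjusted p = 0.0424). The elongation factor Tufm rose, from 68.1, 59.0 and 52.4 CPM with vehicle to 100.6, 87.1 and 92.0 CPM with RGS, a log2 fold change of 0.64 (SE 0.17, adjusted p = 0.00617). Of 12 genes for transcription and copying of mitochondrial DNA 3 fell and 0 rose (6 and 0 at an unadjusted p under 0.05, 4 and 0 with DESeq2): the elongation factor Tefm (-1.33, SE 0.34), Tfb2m (-0.65, SE 0.20), which opens the promoter, and Tfam (-0.50, SE 0.18, adjusted p = 0.0368), which packages the DNA. The polymerase Polrmt had a log2 fold change of 0.02 (SE 0.19, adjusted p = 0.940).

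Of 9 regulators of mitochondrial gene expression 2 fell (22.2%) and 0 rose by edgeR. It was 3 and 0 at an unadjusted p under 0.05, and 2 and 0 with DESeq2. Myc was at 344.5, 310.0 and 310.2 CPM with vehicle and 127.0, 151.0 and 155.6 CPM with RGS, a log2 fold change of -1.15 (SE 0.15, adjusted p = 1.27e-05). Gabpb1, the partner of the ETS factor Gabpa, fell by 0.74 (SE 0.20, adjusted p = 0.00833), while Gabpa itself (-0.25, adjusted p = 0.432), Nrf1 (-0.12, adjusted p = 0.664) and Yy1 (-0.35, adjusted p = 0.0911) did not pass. Vehicle 7, the lowest vehicle tumor for most ribosomal genes, was the lowest for 1 of the 9 regulators (11.1%, against 34.9% of all tested genes). For Myc it was the highest. The part of these regulators in the values of the ribosomal genes was not tested. Of 18 genes of protein import and mitochondrial structure 8 fell (44.4%) and 2 rose (11.1%). The import receptor Tomm20 fell by 1.26 on the log2 scale (SE 0.21) and the outer membrane channel Vdac3 fell by 0.92 (SE 0.16), while the import pore Tomm40 rose by 0.80 (SE 0.15) and the inner membrane protein Letm1 by 0.87 (SE 0.19). Of 7 tested cell division genes 6 fell (85.7%), among them Bub1, which fell by 2.81 on the log2 scale (SE 0.22), and Mki67, which fell by 1.45 (SE 0.19). Their part in the values of the ribosomal genes was not tested.

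Some ribosomal genes start back to back with another gene. In 19 pairs a tested member and a tested gene on the other strand started within 1000 bases. Both genes were called in the same direction in 1 of the 19 pairs, against 8.04% of all 858 such pairs of tested genes, and the fold changes had the same sign in 9 of 19 pairs (47.4%, against 55.8%). Mrpl57 and Ska3, a kinetochore gene whose start lies 49 bases away, both fell (log2 fold change -1.04, SE 0.34, and -1.65, SE 0.28). The call for Mrpl57 held in 13 of 18 alternative fits. It was lost with the GC offset (-0.68, adjusted p = 0.130), with both offsets (-0.58), and without vehicle 9 (-0.50, adjusted p = 0.258), RGS 10 (-1.16) or RGS 11 (-0.88). For Mrpl30 the partner Mitd1, 66 bases away, had -0.63 (SE 0.28, adjusted p = 0.0900) and did not pass. Mrpl50 fell by 0.79 (SE 0.24, adjusted p = 0.0177) and its partner Zfp189 had -0.99 (SE 0.39, adjusted p = 0.0608). The value of Mrpl50 was -0.29 with the GC offset (adjusted p = 0.385), -0.14 with both offsets, -0.53 without vehicle 9 and -0.62 without RGS 10, and its call was lost in each of these. Mrps12 and Sars2, the mitochondrial seryl-tRNA synthetase, start 172 bases apart, and Sars2 had 0.60 (SE 0.46, adjusted p = 0.350). Mrps18b fell while Ppp1r10, 45 bases away, rose (0.47, SE 0.18, adjusted p = 0.0486).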

How the data were processed

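RNA from 6 YUMM3.3 tumors (3 vehicle, 3 RGS) was sequenced as paired-end reads. The deposited table holds raw read counts per gene, which the authors made without normalization. The submitters' processing notes name cutadapt 1.18, FastQC 0.11.7, STAR 2.7.1a and featureCounts 1.6.4 and the build mm10. Whether counting used strand, and how it treated multiply mapped reads, is not given in the sources used here. Positions are those of GRCm38, since all 38971 identifiers shared with GENCODE M21 have the same start and end.

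Genes whose median count reached 5 in either group were fitted in R 4.3.3 with edgeR 4.0.16 (TMM factors, quasi-likelihood F test, Benjamini-Hochberg adjustment over 15355 genes, adjusted p under 0.05). The SE is the absolute log2 fold change over the square root of F. CPM are TMM-scaled, and TPM are counts per length scaled over all genes. The procedure was tested on simulated data. A first criterion, on the share of strongly changed genes recovered, was not met and was replaced by checks of bias, sign and false calls, so a gene that was not called may have changed. Alternatives were DESeq2 1.42.0, other scalings, filters and thresholds, GC and length offsets, thinned counts, no mitochondrial genes, and each tumor left out in turn. The GC and length offsets together were added after seeing the data.

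The genes, lists and tests were chosen with earlier results of these data known. Named genes are those with a listed role, the 8 largest changes in each direction among called genes with groups apart, the 3 highest, 3 lowest and 3 nearest to no change, up to 4 genes of each other list and direction, the genes that failed the filter, and 4 back-to-back pairs. Outside this rule, Mrps17, Mrps21, Mrpl9, Dap3, Ptcd3, Aurkaip1, Gadd45gip1, Polrmt, Dcn, Col1a1, Gabpa, Nrf1, Yy1, mt-Co2 and the pair of Mrps18b and Ppp1r10 were named after their values were seen. So were Mrps9, Mitf, Pecam1, Tek, Mtbp and Rab6a. Gene roles are background knowledge. Differences in depth limit precision. The p-values set the difference between groups against a spread among these 6 tumors that is estimated with information shared across genes.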

Additional observations from a re-analysis of the deposited data

How the results depend on the processing

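Counts of genes that fell and rose were 18 and 2. Across 18 alternative fits, 6 of the 18 genes that fell were called in every fit (Mrpl12, Mrpl13, Mrpl24, Mrpl3, Mrpl30 and Mrps9) and 0 of the 2 that rose. Of the genes not called, 33 were called in no alternative fit. With library size as the only scaling 25 genes fell (33.3%, against 20.5% of all tested genes) and 0 rose (against 12.2%). The median of all tested genes then moved from -0.05 to -0.19. The genes that rose numbered 7 (9.33%, against 20% of all tested genes) with a length offset. They numbered 9 (against 21.6%) with GC and length offsets together, where 10 fell (13.3%, against 11.9%). An adjusted p under 0.01 left 8 and 0, and a required change of 1 on the log2 scale left 4 and 0. The shares of all tested genes at these limits are not given here, so these counts cannot be set against them. Counts at an unadjusted p under 0.05 cannot be set against all tested genes either, since that share is not given. With DESeq2 19 genes fell (25.3%, against 17.2% of all tested genes) and 2 rose (2.67%, against 18%). Leaving out 1 tumor gave 8 to 30 genes that fell and 1 to 3 that rose. In these fits 10.7% to 16% of all tested genes fell and 11% to 16.9% rose. The median log2 fold change of the 75 genes was -0.16, ran from -0.42 to -0.12 with 1 tumor left out, and was -0.00044 with the length offset and -0.0067 with both offsets. Some named genes changed sign, none past the threshold in the fit where its sign changed. Of these, Mrps6 was called higher with both offsets (0.47) and Mrps30 lower without RGS 11 (-0.66). With library size only Mrps22 had -0.083 and Mrpl43 -0.096. With the length offset Mrpl10 had 0.11, Mrps18c 0.29, Mrpl2 0.21 and Mrpl55 0.38. With the GC offset Mrps18c had 0.26, Mrps30 0.060 and Mrpl43 -0.095. With both offsets Mrpl10 had 0.037, Mrps18c 0.64, Mrps30 0.0999 and Mrpl55 0.25. With thinned counts Mrpl55 had 0.025. With 1 tumor left out, Mrps6 ran from -0.0026 to 0.46, Mrps22 from -0.12 to 0.198, Mrpl43 from -0.14 to 0.21, Mrpl2 from -0.26 to 0.15, Mrps18c from -0.33 to 0.32 and Mrpl55 from -0.16 to 0.30. The cause of these changes was not tested. No paired analysis was possible because the tumor numbers, 7 to 12, are not shared between the groups.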
